A study of Mus musculus with 95 samples.

Results

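Oxidative phosphorylation is carried out by 5 protein complexes of the inner mitochondrial membrane. NADH dehydrogenase (complex I) and succinate dehydrogenase (complex II) feed electrons to coenzyme Q, the cytochrome bc1 complex (complex III) passes them to cytochrome c, cytochrome c oxidase (complex IV) gives them to oxygen, and ATP synthase (complex V) uses the resulting proton gradient. A minority of the subunits is encoded in mitochondrial DNA and the rest, described here, in the nucleus. Neurons depend on this pathway for ion pumping and transmitter release. The genes were taken from the deposited count table as the protein-coding genes whose name starts with Ndufa, Ndufb, Ndufc, Ndufs, Ndufv, Sdha to Sdhd, Uqcr, Cox4 to Cox8 or Atp5. This gave 98 rows of 54532 genes: 36 of complex I, 4 of complex II, 8 of complex III, 20 of complex IV, 17 of complex V, and 13 that carry such a name without being subunits (8 Ndufaf assembly factors of complex I, 4 Sdhaf assembly factors of complex II, and Atp5s). For 2 rows, Cox8c and a second row named Atp5o, the total count was 0, and 94 rows passed the filter on low counts in every fit of a single line.

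The table holds total RNA of 95 brain samples from untreated C57BL/6 mice, in 16 groups of 6 mice, with 5 in 1 group. The mouse lines were FKBP51-Nex-Cre, called Nex below, whose driver acts in glutamatergic neurons of the forebrain, and FKBP51-Dlx-Cre, called Dlx below, whose driver acts in its GABAergic neurons. They were each sampled as wild type (WT) and knockout (KO) of Fkbp5, the gene of the co-chaperone FKBP51, in males and females, with tissue from the bed nucleus of the stria terminalis (BNST) and from dorsal hippocampus. The group of 5 is Nex hippocampus male KO. The labels give no age and do not say which Cre or floxed alleles the WT mice carry. Library names such as Dl_D_F_K_8 give line (N or Dl), region (D for hippocampus, B for BNST), sex, genotype (W or K) and a number. Since Cre acts in 1 neuron class, the other cells of each bulk sample still hold an intact Fkbp5, and a lower level in bulk tissue cannot tell fewer cells of a type from less RNA per cell.

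The libraries held 19.59 to 31.24 M counts, with a median of 22.42 M. Levels are given as CPM, counts scaled to a library of 1 M counts after normalization by trimmed mean of M values (TMM). Fkbp5 itself was lower in the KO in the Nex hippocampus and the Dlx BNST. In the Nex hippocampus it lay at 51.6, 57.5 and 65.5 CPM (lowest, median and highest) in WT females and at 20.2, 28.0 and 35.5 in KO females, without overlap. In the Dlx BNST it lay at 31.0, 33.1 and 36.0 CPM in WT males and at 4.72, 6.38 and 8.26 in KO males. The log2 differences were -1.07 and -0.99 in Nex hippocampus females and males and -1.66 and -2.41 in Dlx BNST females and males (edgeR quasi-likelihood, adjusted after Benjamini and Hochberg: adjusted p = 0.000189, 0.00211, 6.62e-06 and 5.07e-09). It did not pass in BNST of the Nex line (0.09 and -0.08) or hippocampus of the Dlx line (0.17 and -0.09), and WT and KO libraries overlapped.

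Of the 95 libraries, 3 of the Dlx line stood apart in these genes, and the main comparisons of these genes that rest on them are given with and without them. The genes took 0.639% to 1.06% of the counts in 92 libraries, but 3.283% in Dl_D_F_K_8 (Dlx hippocampus, female KO), 1.552% in Dl_B_M_K_639 (Dlx BNST, male KO) and 1.214% in Dl_D_M_W_641 (Dlx hippocampus, male WT). In Dl_D_F_K_8, 17863 genes had a count, while the next lowest library had 23552. Against the other libraries of their own group, the median log2 ratio of the 94 genes was 2.52, 0.82 and 0.69 in Dl_D_F_K_8, Dl_B_M_K_639 and Dl_D_M_W_641, with 90, 92 and 92 of the 94 genes above 0. The other 92 libraries lay between -0.45 and 0.40, with 88 of them within 0.25 of 0. The libraries with the same number from the other region lay at 0.15, 0.04 and 0.03.

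**Figure D1:**
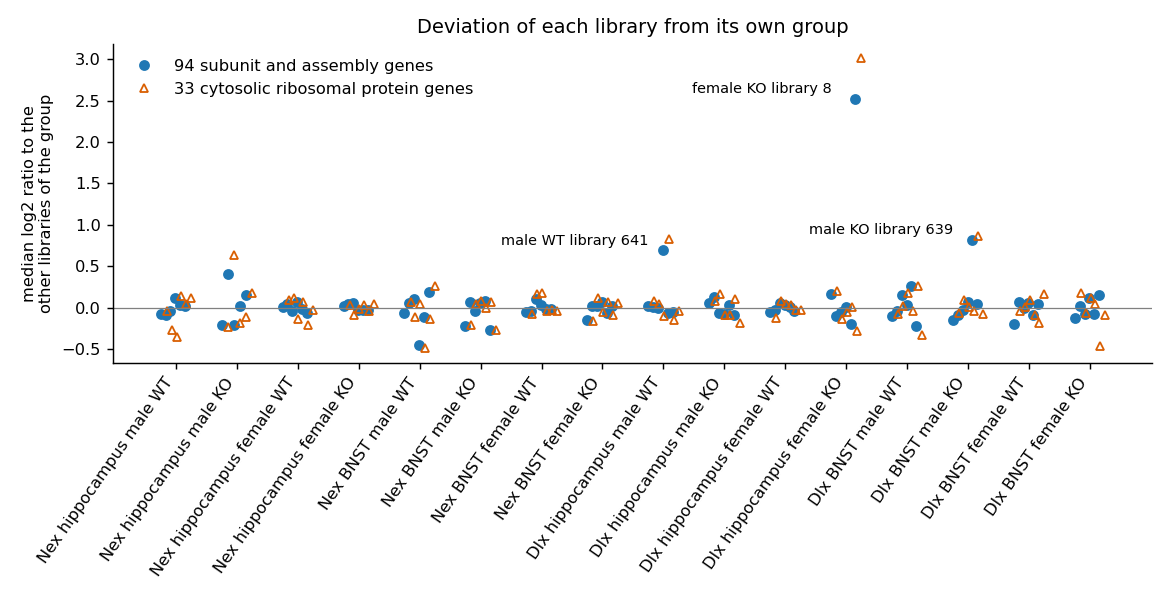
Each point is 1 library; the vertical axis gives the median log2 ratio of its CPM to the other libraries of its group, for the 94 oxidative phosphorylation genes (filled circles) and for 33 cytosolic ribosomal protein genes (open triangles), by group along the horizontal axis. The 3 named Dlx libraries lie at 2.52, 0.82 and 0.69, and their ribosomal protein genes lie high with them.

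The ribosomal protein genes were high in the same libraries: their medians were 3.01, 0.87 and 0.83 in Dl_D_F_K_8, Dl_B_M_K_639 and Dl_D_M_W_641. The 13 subunits encoded in mitochondrial DNA, which belong to the same complexes, lay at -1.96, -0.76 and -0.17. Glycolysis genes lay at 0.93, 0.51 and 0.43, and genes of the citrate cycle and pyruvate dehydrogenase at 0.11, 0.40 and 0.14. Over the groups, the library with the highest median in the oxidative phosphorylation genes was also the highest in the ribosomal protein genes in 9 of 16 groups, and the highest in the mitochondrially encoded subunits in 1 of 16.

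Within each of these libraries the median deviation was smallest in the genes with a coding sequence over 1000 bases. In Dl_D_F_K_8 the median log2 ratio was 2.82 over the 42 genes with a coding length under 400 bases, 2.41 over 39 genes of 400 to 1000 bases and 0.94 over 13 longer ones. Ndufa2, an accessory subunit of complex I, stood at 4.70, and Atp5e, the epsilon subunit of the ATP synthase rotor stalk, at 4.49. Atp5e was at 1403 CPM in that library, and at 53.6 (lowest) and 63.8 (median) in its group. The genes with the lowest ratios were Uqcrc2, a core subunit of complex III, at -1.60, and Ndufs1, the largest core subunit of complex I, at -1.12. Ndufs1 was 54.3 CPM in Dl_D_F_K_8, with a group median of 118 and a highest value of 125. The catalytic subunits Sdha and Atp5a1, with long coding sequences, stood at 0.33 and 0.86. By complex, the medians were 2.62, 0.63, 2.49, 2.64 and 2.68 from I to V, with complex II the lowest. Over all 13826 coding genes with a length, 608 short ones had a median of 1.53 and 9741 long ones of -0.54 in the same library, so the dependence on length was not limited to the respiratory genes. In Dl_D_M_W_641 and Dl_B_M_K_639 the medians by length class were 0.73, 0.66 and 0.44, and 0.85, 0.91 and 0.53. The part of RNA quality in this pattern was not tested.

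**Figure D2:**
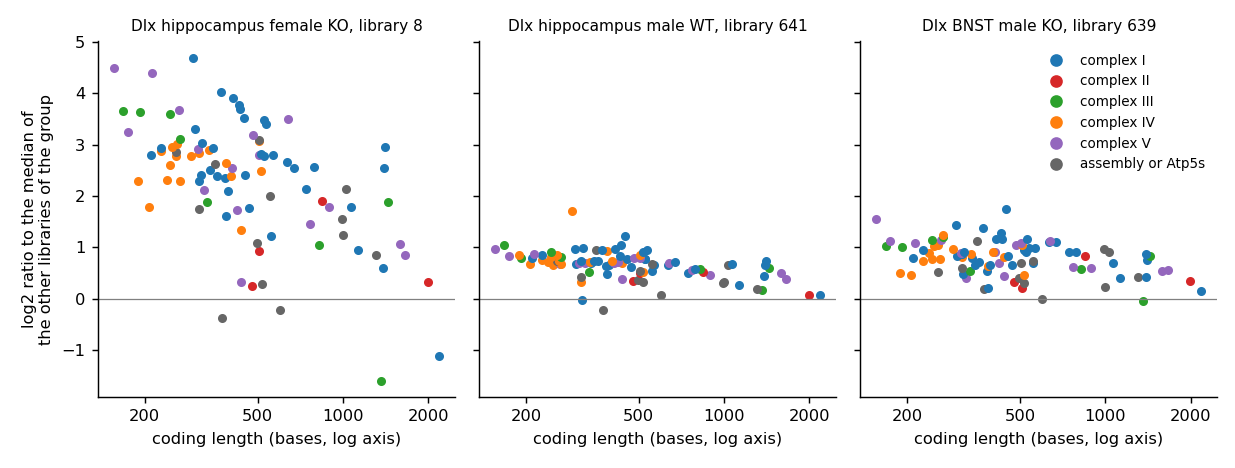
Each point is 1 of the 94 genes in 1 of the 3 Dlx libraries that stood apart; the horizontal axis is coding length in bases on a log axis, the vertical axis the log2 ratio of its CPM to the median of the other libraries of the group, and colours mark the complexes. In Dl_D_F_K_8 (left) short genes such as Ndufa2 at 4.70 lie above long ones such as Ndufs1 at -1.12.

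The nuclear genes of the respiratory chain are textbook targets of nuclear respiratory factor 1 (NRF-1) and of the ETS factor GABPA (NRF-2), and some also of YY1. Promoter sequences from RefSeq (GRCm38.p6), from 250 bases before to 50 after the annotated start, were found for 80 of the 98 genes and searched on both strands. Each motif was counted by itself, so that overlapping matches of different motifs each counted. The NRF-1 motif, GCGCA and GCGC with 1 base of any kind between, was found in 21 of the 80 promoters (26.2%), against 5.19% of all 27025 promoters in the table. The ETS motif CCGGAAG was found in 21 (26.2%, against 9.93%) and the YY1 motif AAGATGGC in 11 (13.8%, against 3.19%). TATAAA was found in 8 of the 80, against 15.7% of all. A match describes these letters and is not evidence of binding. Promoters of 5 genes that return in the results below are shown 5' to 3' on the strand of the gene, with matches to the NRF-1 and ETS motifs in either orientation in capitals. Cox6a1 (chr5:115348909-115349208, minus strand) and Cox8a (chr19:7217567-7217866, minus strand) are the genes with the highest levels per length. Sdha (chr13:74350191-74350490, minus strand) has 3 NRF-1 matches and differed between the regions, Atp5e (chr2:174464052-174464351, minus strand) deviated strongly in Dl_D_F_K_8, and Cox7a1 (chr7:30183921-30184220, plus strand) is an isoform known from muscle and has no match.

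Cox6a1: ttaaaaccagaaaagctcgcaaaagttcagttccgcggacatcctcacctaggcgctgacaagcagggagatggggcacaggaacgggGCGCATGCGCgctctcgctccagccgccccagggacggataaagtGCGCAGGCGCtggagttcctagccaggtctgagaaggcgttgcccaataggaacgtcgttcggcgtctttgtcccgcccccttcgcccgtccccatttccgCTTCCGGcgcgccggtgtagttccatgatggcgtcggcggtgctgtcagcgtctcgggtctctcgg

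Sdha: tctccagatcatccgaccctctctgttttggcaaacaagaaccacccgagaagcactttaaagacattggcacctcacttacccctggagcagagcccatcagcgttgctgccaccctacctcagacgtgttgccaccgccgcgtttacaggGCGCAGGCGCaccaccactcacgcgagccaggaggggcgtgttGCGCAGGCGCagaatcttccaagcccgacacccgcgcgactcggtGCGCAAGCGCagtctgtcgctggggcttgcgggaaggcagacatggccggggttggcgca

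Cox8a: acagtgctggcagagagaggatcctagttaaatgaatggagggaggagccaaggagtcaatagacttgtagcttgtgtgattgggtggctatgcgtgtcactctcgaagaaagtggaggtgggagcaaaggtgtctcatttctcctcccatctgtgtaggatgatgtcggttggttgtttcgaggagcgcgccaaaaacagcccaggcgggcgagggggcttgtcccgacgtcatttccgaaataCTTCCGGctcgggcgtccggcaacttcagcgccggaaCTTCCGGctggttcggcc

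Atp5e: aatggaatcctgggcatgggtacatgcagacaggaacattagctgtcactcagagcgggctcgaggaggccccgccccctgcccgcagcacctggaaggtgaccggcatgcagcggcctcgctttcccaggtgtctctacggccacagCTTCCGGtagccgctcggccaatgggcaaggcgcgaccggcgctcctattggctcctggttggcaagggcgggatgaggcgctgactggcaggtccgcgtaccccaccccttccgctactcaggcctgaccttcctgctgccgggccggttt

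Cox7a1: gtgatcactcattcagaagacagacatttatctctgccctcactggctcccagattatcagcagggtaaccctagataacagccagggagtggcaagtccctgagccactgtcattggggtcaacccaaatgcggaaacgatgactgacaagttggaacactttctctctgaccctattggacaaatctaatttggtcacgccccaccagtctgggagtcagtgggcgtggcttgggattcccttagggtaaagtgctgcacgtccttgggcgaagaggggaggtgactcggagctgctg

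Genes with and without a motif were also set side by side in the values reported below. The median over genes of the difference between hippocampus and BNST, without the 3 libraries, was -0.14 for the 21 genes with an NRF-1 match and -0.12 for 57 without, -0.08 and -0.13 with and without an ETS match, and -0.16 and -0.10 with and without a YY1 match. In Dl_D_F_K_8, the median ratio was 2.11 with and 2.55 without an NRF-1 match, 2.67 and 2.41 with and without an ETS match, and 2.79 and 2.42 with and without a YY1 match. These are descriptions over genes, which share their libraries, with no test.

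Levels were compared between genes per kilobase of the gene length in the file, as the mean of 92 libraries without the 3 that stood apart. They ran from 418 CPM per kb for Cox8a to 0.288 for Cox7b2, besides the 2 rows with a total count of 0. Complex IV was the most uneven. Cox8a, the widely expressed isoform of a small subunit, stood at 418, Cox6a1 at 351 and Cox4i1 at 202 CPM per kb. The isoforms known from heart and skeletal muscle, testis or lung stood far below: Cox6a2 at 3.99, Cox6b2 at 1.93, Cox4i2 at 1.66, Cox7a1 at 1.52 and Cox8b at 0.459 CPM per kb. Ndufa4l2, a paralog of the complex IV subunit Ndufa4, was also low, at 2.17. The alpha and beta subunits that form the catalytic head of complex V, Atp5a1 and Atp5b, stood at 248 and 215, while the 3 genes for its c ring, Atp5g3, Atp5g2 and Atp5g1, stood at 72.9, 34.9 and 15.8. Class medians lay close together, at 34.8, 43.7, 58.0, 42.2 and 34.9 CPM per kb for complexes I to V. The assembly factors, which help build the complexes without remaining in them, lay lower, with medians of 9.25 for the 8 of complex I and 6.09 for the 4 of complex II, and the highest of them, Ndufaf3, stood at 14 CPM per kb. A gene length that includes long rare transcripts lowers the level per length, and lengths here ranged from 360 to 8086 bases. The lowest complex I subunit per length, Ndufb2 at 3.66, had a length of 5628 bases. The order of genes depended on the division by length. Without it Atp5b and Atp5a1 were the highest, at 912 and 777 CPM, above Cox6a1 at 247 and Cox8a at 228. Of the c ring genes, Atp5g1 at 77.5 CPM then lay above Atp5g2 at 58.4, with Atp5g3 at 159.

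**Figure D3:**
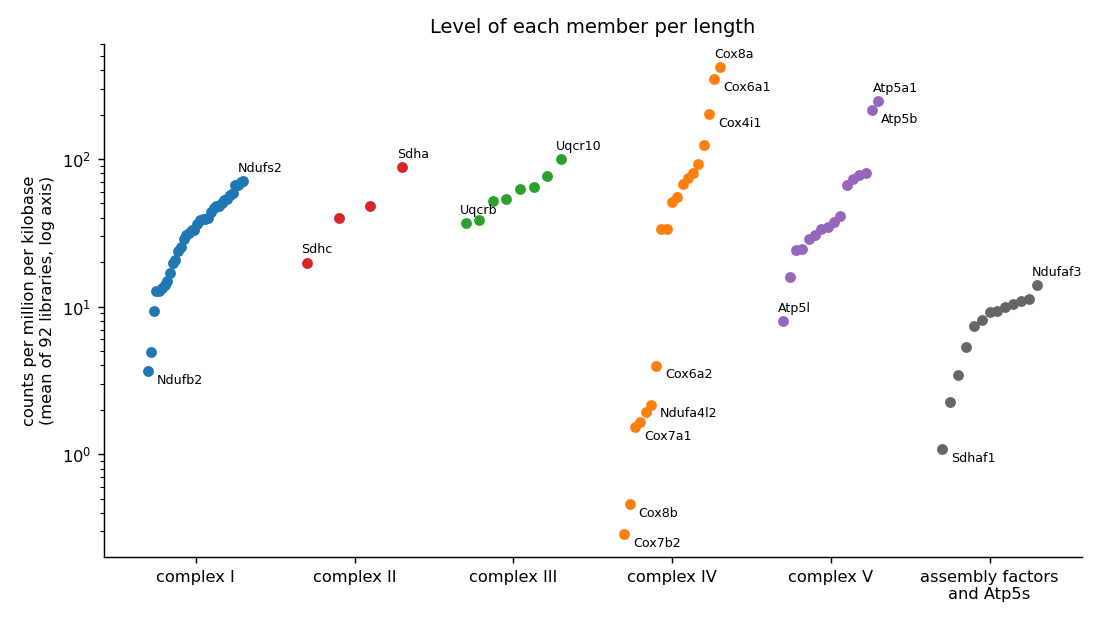
Each point is 1 gene, as the mean CPM per kilobase over 92 libraries, on a log axis, by complex along the horizontal axis. Cox8a, Cox6a1, Atp5a1 and Atp5b lie highest, and the alternative isoforms of complex IV lie below 4 CPM per kb.

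Some genes were measured far more evenly than others. The SD of log2 CPM within groups was 0.166 in the median gene. It was smallest in Atp5a1, at 0.063, followed by Ndufs1 at 0.073 and by Sdhc, Atp5c1 and Uqcrc2 at 0.077. It was largest in Uqcr11, at 0.491, and Ndufs6, at 0.467. Of the 98 genes, 36 are overlapped by exons of another gene, 16 of them over more than 10% of their length. Whether counting used the strand was not given in the sources used here, so reads of Ndufaf2 (65.65% overlapped by B230220B15Rik on the other strand), Sdhaf1 (69.6%) and Atp5o (47.92%) cannot be told from those of the overlapping gene. Ndufab1, the mitochondrial acyl carrier protein, shares sequence with a pseudogene that held 13457 counts over all libraries, and its values are uncertain.

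The study compared KO and WT in each sex, region and line. None of the 94 genes passed an adjusted p of 0.05 in any of the 12 KO against WT comparisons (8 within 1 sex and 4 averaged over the sexes) by edgeR. In these comparisons 0.0106% of all genes tested were called in the Nex hippocampus, in either sex, 0.00539% in the Dlx BNST, and 0% in the Nex BNST and the Dlx hippocampus. DESeq2 also called 0 of the genes, but gave no adjusted p for 58 of them in the Dlx hippocampus and for 88 in the males of the Nex hippocampus. At an unadjusted p under 0.05, edgeR had 10 and 3 of 94 genes in Nex hippocampus males and females (10.6% and 3.19%, against 9.93% and 2.56% of all genes) and 5 and 0 in Nex BNST males and females (5.32% and 0%, against 2.06% and 1.39%). In the Dlx hippocampus it had 0 of 94 in males and 60 in females with all libraries (0% and 63.8%, against 3.2% and 10.6% of all genes), and 12 and 10 without the 3 that stood apart (12.8% and 10.6%, against 6.33% and 7.75%). In the Dlx BNST it had 9 in males and 2 in females with all libraries (9.57% and 2.13%, against 4.34% and 5.66%), and 0 and 4 without the 3 (0% and 4.26%, against 2.35% and 7.43%). Averaged over the sexes, the Dlx hippocampus had 10 with all libraries and 22 without the 3 (10.6% and 23.4%, against 4.68% and 10.7%). In that average without the 3, 27 of 94 genes were above 0. The Dlx BNST average had 2 and 0 (2.13% and 0%, against 2.07% and 1.96%). The Nex hippocampus and Nex BNST averages had 7 and 5 (7.45% and 5.32%, against 10.5% and 2.16%). The median log2 difference was 0.03 and -0.03 in Nex hippocampus males and females, with 53 and 32 of 94 genes above 0. In Nex BNST males and females it was -0.10 and -0.05, with 13 and 22 of 94 above 0. Averaged over the sexes, it was -0.004 in the Nex hippocampus (44 above 0) and -0.069 in the Nex BNST (11 above 0). Over all genes tested these averages had medians of 0.003 and -0.003. The counts above 0 are over genes, which share their libraries, with no test. None of the 12 interactions had a called gene among the 94, with or without the 3 libraries. Of all genes tested, 0% were called for sex by genotype, 0%, 0.00529%, 0.0107% and 0.0054% for region by genotype in Nex males, Nex females, Dlx males and Dlx females, and 0%, 0.00516%, 0.00515% and 0.00515% for line by genotype in hippocampus males and females and BNST males and females.

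The values in the Dlx line depended on the 3 libraries. In Dlx hippocampus females the median log2 difference, KO over WT, was 0.83 with Dl_D_F_K_8, and 92 of 94 genes were above 0. Without that library it was -0.03, and 37 of 94 genes were above 0. In Dlx hippocampus males, where library Dl_D_M_W_641 stood apart, the median was -0.20 with and -0.07 without the 3 libraries. In Dlx BNST males, where library Dl_B_M_K_639 stood apart, it was 0.21 with 92 of 94 genes above 0, and 0.02 with 67 above 0 without it. In Dlx BNST females, which hold none of the 3 libraries, it was -0.07. Averaged over the sexes, the median went from 0.31 to -0.05 in the Dlx hippocampus and from 0.06 to -0.02 in the Dlx BNST when the 3 libraries were left out. The median line by genotype interaction in the male hippocampus went from 0.22 to 0.10. The ribosomal protein genes had medians of 1.10 in the Dlx hippocampus females and 0.25 in the Dlx BNST males with all libraries.

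**Figure D4:**
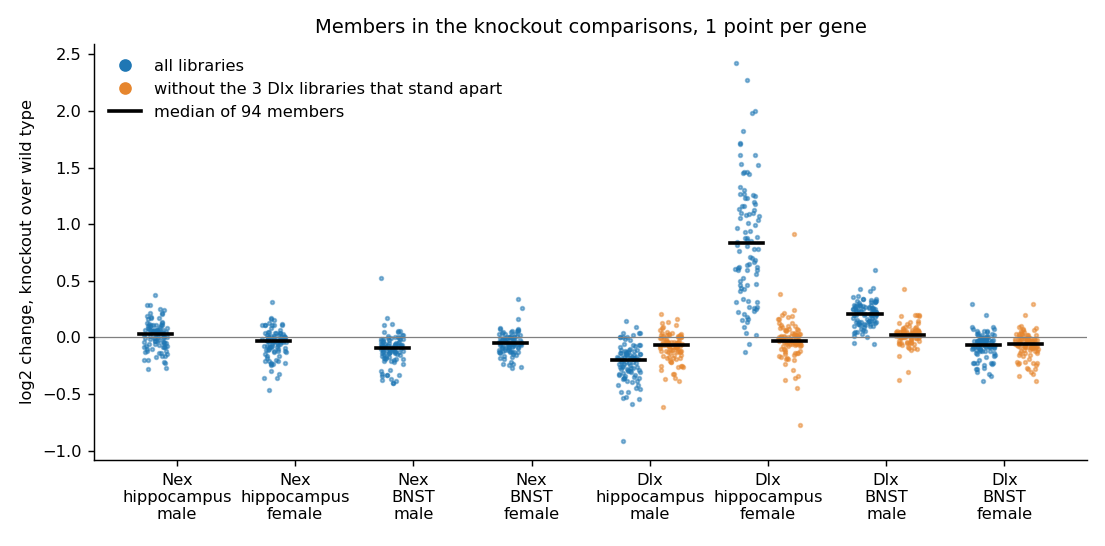
Each point is 1 of the 94 genes; the vertical axis is the log2 difference of KO over WT, by line, region and sex, with all libraries (blue) and without the 3 Dlx libraries that stood apart (orange), and the black bars are medians. The median in Dlx hippocampus females moves from 0.83 to -0.03.

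The gene with the smallest unadjusted p over the 12 comparisons was Ndufb2 (ENSMUSG00000002416, GRCm38 chromosome 6, 39592574-39603382, plus strand), an accessory subunit in the membrane arm of complex I. In the Nex hippocampus it lay at 17.8, 18.3 and 21 CPM (lowest, median and highest) in WT females and at 19.2, 23.9 and 25.9 in KO females. WT males had 17.2, 19.99 and 22.5 CPM, and the 5 KO males 18.6, 22.1, 23.0, 23.4 and 29.3. The KO libraries were higher on the whole and overlapped with the WT libraries in both sexes. Averaged over the sexes the log2 difference of Ndufb2 was 0.28 (SE 0.0672, unadjusted p = 0.000363), which did not pass adjustment over all genes (edgeR adjusted p = 0.296). In Dlx BNST females the difference of Ndufb2 was 0.29 (edgeR adjusted p = 0.843) with all libraries and 0.30 without the 3. In Dlx BNST males it was -0.05, and -0.17 (SE 0.0956) without the 3. In Dlx hippocampus females it was 1.24, and 0.38 (SE 0.11, edgeR adjusted p = 0.484) without the 3, and in Dlx hippocampus males 0.09 and 0.08.

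The catalytic and core subunits were measured closely enough to bound the difference. Averaged over the sexes of the Nex hippocampus, Ndufs1 differed by 0.04 (95% confidence interval -0.03 to 0.11), and Atp5a1 by 0.04 (-0.04 to 0.12). Sdha, the flavoprotein of succinate dehydrogenase, differed by -0.05 (-0.16 to 0.07), and Cox4i1, which is among the first nuclear subunits to join complex IV, by -0.01 (-0.17 to 0.14). These 4 intervals lie within a log2 difference of 0.2 in either direction. In the Dlx BNST with all libraries, Ndufs1 differed by 0.05 (-0.05 to 0.14), Sdha by 0.02 (-0.09 to 0.13), Atp5a1 by 0.02 (-0.10 to 0.15) and Cox4i1 by 0.10 (-0.12 to 0.32). Without Dl_B_M_K_639, Ndufs1 differed by 0.03 (-0.06 to 0.12), Sdha by -0.02 (-0.11 to 0.07), Atp5a1 by -0.04 (-0.12 to 0.05) and Cox4i1 by -0.03 (-0.16 to 0.11).

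The region comparison, hippocampus against BNST within a line, sex and genotype, gave calls in all 8 sets of groups. It did not pair libraries of the same number, which may come from the same mouse. Counts with a replicate block, which pairs them, were taken with all libraries only and are given at the end. In Nex females, which hold none of the 3 libraries, 48 of 94 genes were called lower and 0 higher in WT hippocampus, and 40 lower and 1 higher in KO hippocampus. The background was large: of all genes tested, 26.4% were called lower and 26.4% higher in Nex WT females, and 25.6% lower and 25.4% higher in Nex KO females. The same 38 genes were lower in both genotypes, which is 79.2% of the 48 and 95% of the 40. The overlap over all genes was not taken, and both genotypes share a fit, so these percentages have no background. The differences were small, with a median over the 94 genes of -0.17 in WT and -0.15 in KO females. In Nex males fewer genes were called: 0 higher and 11 lower in WT (median -0.09; background 19% lower) and 1 higher and 2 lower in KO (0.03; 18.4% lower). With 1 library left out at a time, the WT male median ran from -0.143 (without N_B_M_W_573) to -0.06 (without N_B_M_W_585). The KO male median ran from -0.06 (without N_D_M_K_557) to 0.073 (without N_D_M_K_543). The difference between the sexes was not tested.

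In the Dlx line the region comparison turned on the libraries that stood apart. With all libraries, 33 genes were called higher and 0 lower in the hippocampus of KO females (background 19.4% higher). Without Dl_D_F_K_8 there were 1 higher and 17 lower (background 21.2% and 23.5%), and the median went from 0.79 to -0.11. In WT females, which share the fit and its spread with Dl_D_F_K_8, the count of lower genes was 4 with it (background 15.2%) and 34 without (24.4%). In WT males it was 3 with all libraries (24.2%) and 33 without Dl_D_M_W_641 and Dl_B_M_K_639 (27.5%), with 2 genes higher in each case. In KO males it was 55 (28.3%) and 46 (29.2%), with the median at -0.39 and -0.20. In these comparisons with all libraries, 22.6%, 26.0% and 14.9% of all genes were higher in the hippocampus of Dlx WT males, KO males and WT females, 16.8% were lower in Dlx KO females, and 16.7% and 17.7% were higher in Nex WT and KO males. Without the 3 libraries, 30 lower genes were shared by Dlx WT and KO males (90.9% and 65.2% of the lower genes of each) and 14 by Dlx WT and KO females (41.2% and 82.4%). Here too the overlap over all genes was not taken.

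With the 3 libraries left out, 37 of the 94 genes (39.4%) were lower in the hippocampus in all 8 comparisons, against 29.9% of all 18218 genes tested, and 2, Cox8a and Sdhaf4, were higher in all 8 (2.13%, against 28.4%). Of the 94 genes, 15 were called lower in at least 6 comparisons (16%, against 18.8% of all genes), and 26 were never called (27.7%, against 18.7%). The share of genes called lower in most comparisons was thus near that of all genes. With all libraries 3 of the 94 were lower in all 8, and 0 were called lower in at least 6, against 25.8% and 16% of all genes. The region comparisons of 1 line and sex come from different libraries for WT and KO.

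Within succinate dehydrogenase the subunits differed among themselves. It is the only complex with no mitochondrially encoded subunit, and it also works in the citrate cycle. Sdhc (ENSMUSG00000058076, GRCm38 chromosome 1, 171127165-171150603, minus strand), which anchors the enzyme in the membrane, was called lower in 5 of 8 comparisons with all libraries and in 8 of 8 without the 3 libraries. Of all genes, 11% were called lower in 8 of 8 without the 3 libraries. In Nex WT females it lay at 54.7, 56.6 and 59.8 CPM (lowest, median and highest) in the hippocampus and at 61.6, 66.7 and 70.2 in the BNST. In Nex KO females it lay at 51.9, 57.6 and 59.0 against 65.0, 68.0 and 73.9. The regions did not overlap in either genotype.

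In Nex WT males Sdhc lay at 55.6, 58.0 and 62.8 CPM in the hippocampus and at 66.2, 70.6 and 71.6 in the BNST, and the 5 Nex KO males had 53.6, 53.6, 57.1, 58.4 and 59.6 against 65.1, 70.5 and 79.5. Dlx WT females had 58.9, 59.9 and 61.2 CPM against 67.7, 75.7 and 79.2, and Dlx KO males 55.9, 57.5 and 59.7 against 69.8, 74.0 and 85.1. These groups did not overlap either. Dlx WT males (56.1, 60.5 and 84.8 against 61.5, 72.8 and 77) and Dlx KO females (56.9, 61.4 and 112.8 against 66.7, 69.3 and 78.2) overlapped, and the highest hippocampus value in each was Dl_D_M_W_641 or Dl_D_F_K_8.

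The log2 difference of Sdhc was -0.22 in Nex WT females (SE 0.0435, edgeR adjusted p = 0.000106) and -0.33 in Nex KO males (SE 0.062, edgeR adjusted p = 0.000196). Without the 3 libraries it ranged from -0.20 in Dlx KO females to -0.35 in Dlx KO males (edgeR adjusted p = 0.0182 and 2.11e-06). Sdha, the catalytic flavoprotein, was called lower in 6 of 8 comparisons without the 3 libraries and 5 with all, with differences from -0.15 to -0.32. With all libraries, the Sdha calls in Dlx WT males and females were lost with a replicate block (edgeR adjusted p = 0.0514 and 0.0549). In Nex WT females Sdha lay at 324, 341 and 354 CPM in the hippocampus and at 370, 395 and 418 in the BNST, without overlap. Sdhb, the iron-sulfur subunit, differed by -0.23 in Nex WT females (SE 0.0445, edgeR adjusted p = 9.38e-05) and by -0.09 in Nex KO males (edgeR adjusted p = 0.378). Sdhb was called lower in 5 of 8 without the 3 libraries and 4 with all. Sdhd, the other membrane anchor, was called in 0 of 8 either way, with values from -0.09 to 0.07 without the 3 libraries.

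Complex I counted 17 of 36 subunits lower in Nex WT females and 15 in Nex KO females. Without the 3 libraries the count was 12 in Dlx WT males, 18 in Dlx KO males, 13 in Dlx WT females and 7 in Dlx KO females, and it was 2 and 0 in Nex WT and KO males. Of all genes tested, 26.4% and 25.6% were called lower in Nex WT and KO females, and 19% and 18.4% in Nex WT and KO males. Without the 3 libraries the shares were 27.5%, 29.2%, 24.4% and 23.5% in Dlx WT males, KO males, WT females and KO females. The counts of 8 comparisons given here for single genes are without the 3 libraries. Ndufb5, an accessory subunit of the membrane arm, was called lower in 7 of 8 comparisons (4 with all libraries), by 0.29 to 0.45 on the log2 scale in those 7. In Nex WT females Ndufb5 lay at 45.5, 50.6 and 59.4 CPM in the hippocampus and at 62.7, 66.9 and 76.4 in the BNST, without overlap. Part of the Ndufb5 gene, 12.33%, is overlapped by another gene's exons. The core subunit Ndufs1, which carries iron-sulfur clusters, was called in 5 of 8 (4 with all libraries), by -0.12 to -0.15 where called. With all libraries, the Ndufs1 call in Dlx WT males was lost without the filter on low counts (edgeR adjusted p = 0.226). It was also lost with a replicate block (0.156) and when only the groups compared were fitted (0.0638). Ndufaf2, an assembly factor, was lower by 0.31 to 0.69 and called in 6 of 8 (3 with all libraries), with the overlap named above.

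The counts of complexes III to V are to be read against the same shares of all genes called lower, 18.4% to 29.2% by comparison. Complex III had 5 of 8 genes lower in Nex WT females and 4 in Nex KO females, 1 and 0 in Nex WT and KO males, and 1 or 2 in each of the 4 Dlx comparisons without the 3 libraries. In complex IV, 7 of 17 genes were called lower in Nex females of either genotype, 3 and 1 in Nex WT and KO males, and 6, 10, 7 and 3 in Dlx WT males, KO males, WT females and KO females without the 3 libraries. Cox5a, which carries no metal centre, was called in 7 of 8 (4 with all libraries), with values from -0.18 to -0.43; its call in Nex WT males was lost with a replicate block (edgeR adjusted p = 0.094). In Nex WT females Cox5a lay at 50.2, 63.0 and 70.6 CPM in the hippocampus and at 74.4, 76.7 and 85.8 in the BNST, without overlap. Complex V had 11 of 16 genes lower in Nex WT females, 8 in Nex KO females, and 1 and 0 in Nex WT and KO males. Without the 3 libraries it had 5, 8, 6 and 2 in Dlx WT males, KO males, WT females and KO females. Atp5j2, the f subunit of the membrane part, was called lower in 6 of 8 (3 with all libraries, and higher in 1), with values from -0.23 to -0.47, and Atp5a1 in 6 of 8 (4 with all libraries), with values from -0.11 to -0.22.

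**Figure D5:**
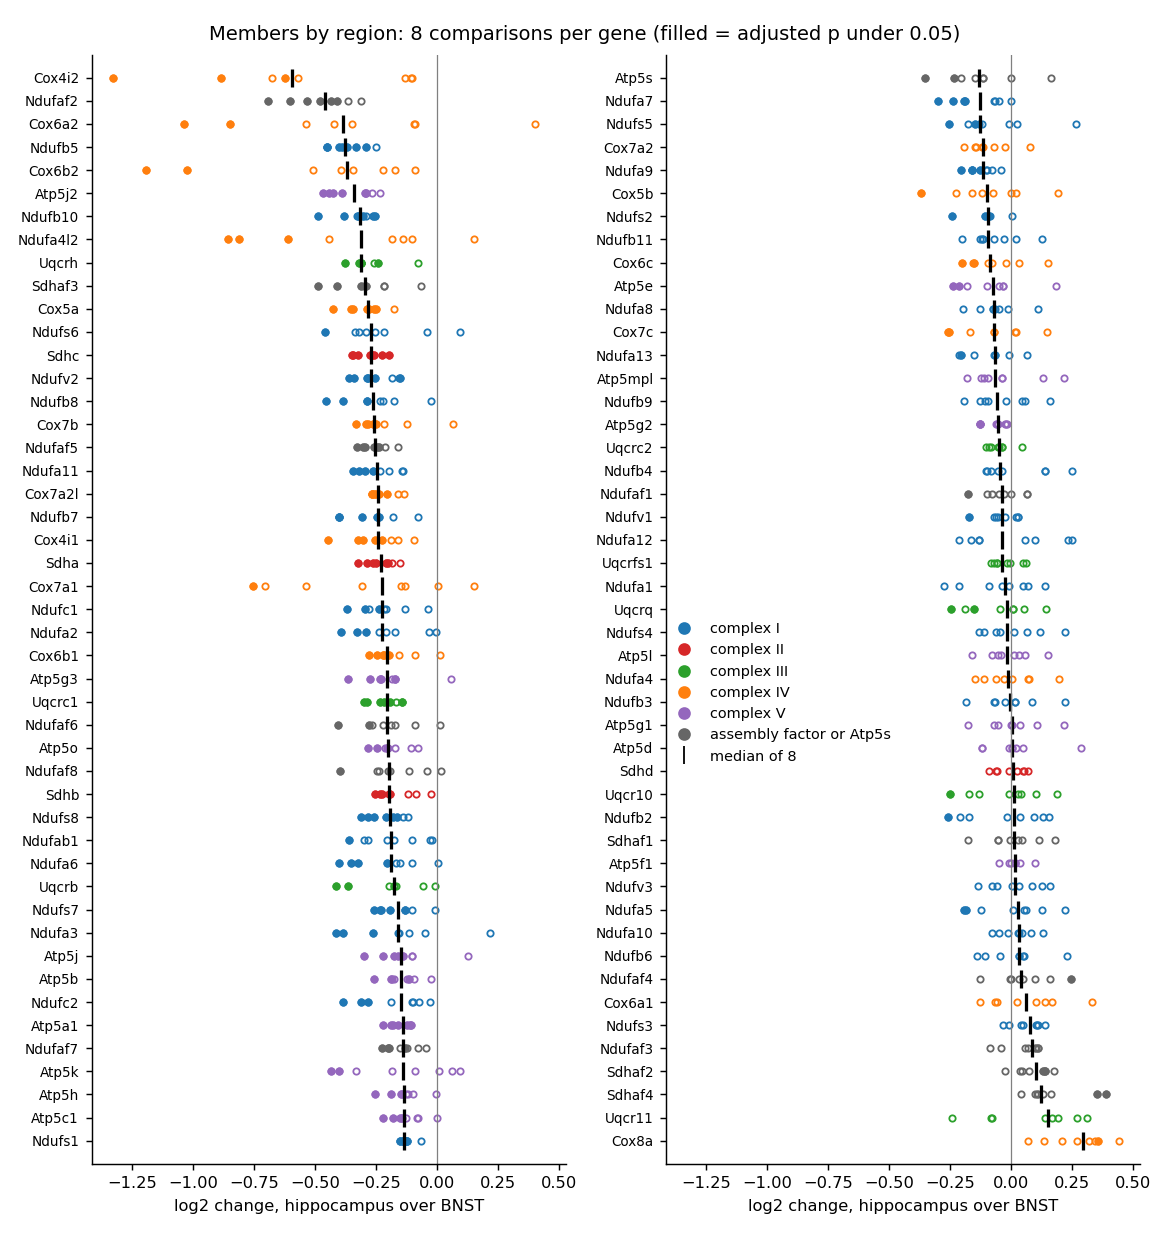
Each row is 1 of the 94 genes, ordered by the median (black bar) of its log2 difference of hippocampus over BNST in 8 comparisons (points; filled where the edgeR adjusted p is under 0.05; colours mark the complexes), without the 3 Dlx libraries that stood apart. Sdhc lies between -0.20 and -0.35 with 8 filled points, and Cox8a lies between 0.07 and 0.44 with 1.

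Cox8a went the other way (ENSMUSG00000035885, GRCm38 chromosome 19, 7215158-7217616, minus strand). In Dlx WT males it lay at 256.0, 277.9 and 442.1 CPM in the hippocampus, the highest in Dl_D_M_W_641, and at 188.1, 205.9 and 258.8 in the BNST. The groups overlapped by little. The difference was 0.49 with all libraries (edgeR adjusted p = 0.00265) and 0.36 without the 3 (SE 0.0936, edgeR adjusted p = 0.00257). In the other 7 comparisons without the 3 libraries Cox8a was not called, with values from 0.07 to 0.44, and with all libraries it was called higher in 2 of 8. Its promoter, shown above, holds a pair of ETS matches near the start. Sdhaf4, an assembly factor that binds the flavoprotein of succinate dehydrogenase, was called higher in Nex KO males (0.39, SE 0.121, edgeR adjusted p = 0.0141) and in Dlx WT males without the 3 libraries (0.35, SE 0.107, edgeR adjusted p = 0.00774), while its client Sdha was lower or not called. The call of Sdhaf4 in Nex KO males was lost when only the groups compared were fitted (edgeR adjusted p = 0.0591), and that in Dlx WT males with a replicate block (edgeR adjusted p = 0.0615, all libraries).

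The rare isoforms of complex IV had larger log2 differences on low levels. Cox4i2, the isoform of subunit 4 known from lung, was called lower in the hippocampus in 3 of 8 comparisons, with or without the 3 libraries. Its call in Nex WT males was lost without the filter on low counts (edgeR adjusted p = 0.0929), with a replicate block (0.134) and when only the groups compared were fitted (0.0984). With all libraries, its call in Dlx WT females was lost without the filter (0.064) and with a replicate block (0.0548). In Dlx WT females Cox4i2 lay at 0.286, 0.713 and 0.878 CPM in the hippocampus and at 1.24, 1.60 and 1.90 in the BNST, without overlap, a difference of -1.33 (SE 0.249, edgeR adjusted p = 0.00012). Cox6b2, known from testis, differed by -1.19 (SE 0.240, edgeR adjusted p = 0.00017) and Cox6a2, known from muscle, by -1.04 (SE 0.326, edgeR adjusted p = 0.00903) in Dlx KO males, and both were also called in Dlx KO females, at -1.02 and -0.85. These values are without the 3 libraries, where each gene was called in 2 of 8 comparisons, against 1 of 8 with all libraries. Cox6b2 and Cox6a2 were not called in either genotype of the Nex line. Ndufa4l2, a paralog of the complex IV subunit Ndufa4, was called lower in the hippocampus of Nex KO (-0.81), Dlx KO (-0.86) and Dlx WT (-0.61) males without the 3 libraries (2 of 8 comparisons with all). The Nex KO call was lost with a replicate block (edgeR adjusted p = 0.0779). The difference of these region effects between lines or sexes was not tested.

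The regions also differ in their cells, and the marker genes moved in these comparisons. All 8 oligodendrocyte genes were called lower in the hippocampus in all 8 comparisons, with medians from -1.13 to -2.04, and their summed level was 2369.5 to 8816.3 CPM over hippocampus and 8901.8 to 18496.3 over BNST libraries. Summed levels of the GABAergic neuron genes were 530.6 to 973.3 against 1905.4 to 3540.8 CPM, of the glutamatergic neuron genes 2819.0 to 8515.4 against 574.3 to 1390.7, and of the microglia genes 324.7 to 1018.7 against 425.1 to 803.6. The 8 genes of the striatum, which borders the BNST, summed to 157.3 to 304.2 CPM in the hippocampus and to 164.9 to 6338.0 in the BNST. In none of the oligodendrocyte, GABAergic, glutamatergic or microglia lists was a gene at 0 in any library. The part of cell composition in the differences of the respiratory genes was not tested.

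For other genes of the pathway the counts in Nex WT females are to be read against the 26.4% of all genes called higher and the 26.4% called lower. Of the 13 mitochondrially encoded subunits, 4 were called lower and 0 higher (median -0.17). Of 17 genes of the citrate cycle and pyruvate dehydrogenase, 2 were higher and 5 lower (-0.03). Of 33 assembly factors without a name in the rule, 7 were higher and 5 lower (0.00), of 14 electron carrier and coenzyme Q genes 3 and 3 (0.02), of 16 glycolysis genes 4 and 3 (0.03), and of 17 transcriptional regulators of respiration 5 and 5 (0.03). The cytosolic ribosomal protein genes, which do not belong to the pathway, had 27 of 33 lower and 0 higher (-0.28), and in Dlx KO males without the 3 libraries 23 of 33 (-0.30). No gene of any of these lists was called in a KO against WT comparison.

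Between the WT mice of the 2 lines, 1 gene was called in the main edgeR fits with all libraries. Ndufa4l2 (ENSMUSG00000040280, GRCm38 chromosome 10, 127514967-127517154, plus strand) lay in the female BNST at 1.09, 2.15 and 2.60 CPM in the Nex line and at 2.46, 3.61 and 4.81 in the Dlx line, with a small overlap. The log2 difference, Nex over Dlx, was -0.80 (SE 0.199, edgeR adjusted p = 0.0376), where 0.695% of all genes were called. In the male BNST Ndufa4l2 lay at 1.03, 2.07 and 2.26 CPM against 2.16, 2.90 and 3.81, a difference of -0.69 (edgeR adjusted p = 0.097; 0.597% of all genes called). Without the 3 libraries its adjusted p was 0.0411 in males, with 2.08% of all genes called, and 0.0164 in females. In the female hippocampus without the 3 libraries, Uqcrfs1, the Rieske iron-sulfur protein of complex III, was called lower in the Nex line (-0.19, SE 0.0504, edgeR adjusted p = 0.0384), where 1.91% of all genes were called. With all libraries Uqcrfs1 differed by -0.18 (edgeR adjusted p = 0.717). Neither of these groups holds any of the 3 libraries, which only share the fit. Limma with library weights called Uqcrfs1 with all libraries kept (-0.20, limma adjusted p = 0.008). Ndufa6 (-0.33, edgeR adjusted p = 0.743) was also called by limma (-0.37, limma adjusted p = 0.00829). It was called too when only the groups compared were fitted (-0.34, edgeR adjusted p = 0.0136). The share of all genes called is not given for these settings. With all libraries, the call of Ndufa4l2 in the female BNST was lost without the filter on low counts (edgeR adjusted p = 0.0626). It was also lost when only the groups compared were fitted (0.132). The labels do not say whether the lines were bred or sequenced together, and line and such a batch cannot be told apart.

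Between WT males and females none of the 94 genes was called in the 4 comparisons with all libraries, where 0.117%, 0.0535%, 0.23% and 0.0701% of all genes were called in the Nex hippocampus, Nex BNST, Dlx hippocampus and Dlx BNST. In the Dlx hippocampus without the 3 libraries, Ndufs3, a core subunit of complex I, was higher in males by 0.18 (edgeR adjusted p = 0.0392) and Sdhaf4 by 0.35 (edgeR adjusted p = 0.0452), where 7.7% of all genes were called. By edgeR, both calls depended on leaving libraries out of the fit. Limma with library weights called Sdhaf4 with all libraries kept (0.35, limma adjusted p = 0.0261).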

How the data were processed

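Total RNA of 95 brain samples was sequenced. Per the submitters' processing notes, HISAT2 2.0.5 and featureCounts 1.5.0-p3 were used, and DESeq2 is named without a version. All values come from raw gene counts as the authors deposited them, without normalization. Per the labels, each group holds tissue of 5 to 6 mice, and each library is named for 1 region and number. The genome build was not given in the sources used here. GENCODE M21 (GRCm38) holds the same coordinates for 98.33% of its shared identifiers, so positions are given on GRCm38. The 95 deposited FPKM columns and the authors' comparison columns were not used.

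In R 4.3.3, low counts were filtered by filterByExpr of edgeR 4.0.16, libraries were scaled by TMM, and the quasi-likelihood test of edgeR was used. P-values were adjusted after Benjamini and Hochberg over all genes tested, and a gene was called at an adjusted p under 0.05. The 4 groups of a line and region (KO, sex), of a line and sex (region), or the 8 of a region (line) share a fit, which makes 40 comparisons. SEs are the log2 difference over the square root of F. P-values measure the spread between mice of a group.

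The genes and lists were chosen with earlier results of these data known. Named per comparison were up to 4 called higher and 4 called lower by size, with a mean of at least 1 CPM, or the 3 with the smallest p where none was called, besides core subunits, isoforms and the highest and lowest genes per length. Other genes named for their place in a replicate or over the 8 region comparisons were chosen after their values were seen. Alternatives were DESeq2 1.42.0, limma 3.58.1 with library weights, other size factors, no filter, only the groups compared, a replicate block, each library left out and, chosen after seeing the data, the 3 libraries that stood apart left out. On simulated counts, edgeR recovered 96% of changes of log2 1 and 55% of log2 0.5 for KO against WT in Nex BNST males (18709 genes), and 94% and 78% for the region comparison in Nex WT females (18891 genes). Only well-counted genes were changed there, and no library stood apart. Low genes such as Cox4i2, the Dlx fits and changes under log2 0.5 are not covered.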

Additional observations from a re-analysis of the deposited data

Results flagged for a closer look

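In groups of 4 to 10 libraries, a highest or lowest library was set against the rest by Dixon's test, in which chance marks about 1 in 20 groups. The median deviation of the genes stood out in 3 of 16 groups, in Dl_B_M_K_639 (0.79), Dl_D_F_K_8 (2.495) and Dl_D_M_W_641 (0.67). Of 160 sets of levels (10 genes in 16 groups), 30 stood out, and most of these were the same 3 libraries.

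In Dl_D_F_K_8 the levels that stood out were Atp5b at 1809.8 CPM, Cox4i1 at 2495.8, Cox4i2 at 9.02, Cox5a at 177.5, Cox8a at 825.5, Ndufa4l2 at 25.2, Ndufb5 at 429.4, Ndufb2 at 124.4 and Sdhc at 112.8. In Dl_B_M_K_639 they were Atp5b at 1509.6 CPM, Cox4i1 at 801.5, Cox5a at 146.0, Cox8a at 329.7, Ndufb5 at 141.6, Sdha at 517.8 and Sdhc at 85.1. In Dl_D_M_W_641 they were Atp5b at 1240.9 CPM, Cox4i1 at 563.2, Cox5a at 107.6, Cox8a at 442.1, Ndufb5 at 87.6 and Sdhc at 84.8.

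The others lay in single genes. Atp5b stood out at 937.8 CPM in Dl_D_M_K_585, at 853.5 in N_B_F_W_474 and at 917.2 in N_D_F_K_476, in which Sdha also stood out at 369.8. Cox5a stood out at 85.8 CPM in N_B_F_W_484, Ndufa4l2 at 3.93 in Dl_D_F_W_11, Sdha at 448.7 in Dl_B_M_W_643, and Sdhc at 51.9, the lowest of its group, in N_D_F_K_518.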

How the results depend on the processing

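Of the settings other than leaving out 1 library each, 219 of 233 medians, 210 of 233 counts of higher and 207 of 233 counts of lower genes stayed near the value reported. Leaving out Dl_D_F_K_8 gave a KO against WT median of -0.029 in Dlx hippocampus females, -0.171 for sex by genotype, 2 genes higher in males in the Dlx hippocampus, 1 higher and 34 lower by region in Dlx WT females, 1 and 17 in Dlx KO females with a median of -0.105, and interactions of 0.05 (region by genotype, Dlx females) and -0.018 (line by genotype, female hippocampus). Leaving out all 3 libraries, chosen after seeing the data, gave -0.029, -0.047 and 2 for the first 3 of these, 33 lower by region in Dlx WT males, -0.115 for region by genotype in Dlx males, 1 lower between lines in the female hippocampus and 1 in the male BNST, and -0.012 for line by genotype in the female hippocampus. For the settings that follow, the share of all genes called is not given, so their counts of genes cannot be read against a background. Limma with library weights gave -0.019 and -0.069 for the KO median in Dlx hippocampus females and for sex by genotype in the Dlx hippocampus. It called 1 gene, Ndufab1, lower in KO Dlx hippocampus over both sexes, 2 higher in Dlx hippocampus males, 3 lower in Dlx BNST males, 12 lower between lines in the female hippocampus, and 4 and 5 lower in the male and female BNST. By region limma called, higher and lower, 1 and 18 in Nex WT males, 2 and 4 in Nex KO males, 4 and 27 in Dlx WT males, 1 higher in Dlx KO males, 1 and 45 in Dlx WT females, and 3 and 26 in Dlx KO females with a median of -0.091; its interactions were 0.063 (region, Dlx females) and -0.019 (line, female hippocampus). DESeq2 called 2 higher in Nex KO males, 4 higher in Dlx WT males and 5 higher and 1 lower in Dlx KO females, with no adjusted p for 60 genes there. Median-of-ratios size factors gave 2 higher in Nex KO males. Without the filter there were 7 lower in Nex WT males, 0 higher in Nex KO females and 0 between lines in the female BNST. Fitting only the groups compared gave 0 higher in Nex KO males, Nex KO females and Dlx KO females, 1 higher and 34 lower in Dlx WT females, and 5 and 0 lower between lines in the female hippocampus and BNST. The labels share replicate numbers across regions. Same-numbered libraries deviated together in part (42 pairs, r from -0.175 to 0.326, 15 over 0.1 and 15 best with their own number, a hint from the data). The share of best pairs to be met by chance was not taken. In none of the 8 sets was every pair over 0.1, which does not settle whether the numbers are animals. The labels do not tie the numbers to animals, and the main fits do not pair the libraries. If same-numbered libraries come from the same mouse, the region p-values leave out that pairing. The block was fitted with all libraries only, so the region calls without the 3 libraries were not checked with it. With a replicate block the region counts, higher and lower, were 1 and 4 in Nex WT males, 1 and 1 in Nex KO males, 0 and 45 in Nex WT females, 1 and 37 in Nex KO females, 1 and 0 in Dlx WT males, 0 and 35 in Dlx KO males, 0 and 2 in Dlx WT females and 2 and 0 in Dlx KO females. Genes that changed sign under limma, without Dl_D_F_K_8 or without all 3 were Ndufa2 in KO Dlx hippocampus females (-0.003, -0.014, -0.013) and, by region in Dlx KO females, Ndufa2 (-0.191, -0.172), Atp5e (-0.05, -0.033) and Atp5k (-0.132, -0.091), and Atp5e in line by genotype of the female hippocampus (0.034, 0.054, 0.059). Leaving out 1 library each, Ndufa2 ran from -0.014 to 2.652 (KO) and from -0.172 to 2.533 (region), Atp5e from -0.033 to 2.467 (region) and -2.415 to 0.054 (line by genotype), and Atp5k from -0.091 to 2.279; medians ran from -0.029 to 0.998 (KO median, Dlx hippocampus females), -1.214 to -0.171 (sex by genotype), 0.05 to 1.082 (region by genotype, Dlx females) and -1.042 to -0.018 (line by genotype, female hippocampus). Region counts of higher genes ran from 0 to 3 (Nex KO males), 0 to 1 (Nex females of either genotype), 2 to 4 (Dlx WT males) and 1 to 54 (Dlx KO females, median -0.105 to 0.926), and of lower genes from 2 to 5 (Nex KO males), 1 to 9 (Dlx WT males, 9 without Dl_D_M_W_641), 33 to 64 (Dlx KO males, 33 without Dl_B_M_K_639) and 0 to 17 (Dlx KO females); the count between lines in the female BNST ran from 0 to 2. The cause of these changes was not tested. Genes under 4 CPM, such as Cox4i2 and Ndufa4l2, are limited by depth.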
